A study of Homo sapiens with 21 samples.

Results

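The human mitochondrial genome carries 37 genes, and all of them were found among the 60668 gene identifiers of each count table by their symbols, which start with MT-. They are the 2 rRNA genes MT-RNR1 and MT-RNR2, 13 protein genes and 22 tRNA genes, and each passed the filter on low counts in both tables. Their counts were followed in 21 RNA-seq libraries of HCC1806, a triple-negative breast cancer cell line, which fell into 7 groups of 3. One table held cells with genotype 3xSR (titled 3XSR; by the series title, the splicing factors SRSF2, SRSF3 and SRSF7 overexpressed jointly), cells overexpressing MYC (MYC-OE) and cells of genotype control (3XCTL). The other held cells overexpressing SRSF2, SRSF3 or SRSF7 singly (1xSRSF2, 1xSRSF3, 1xSRSF7) and a single plasmid control (1xCtrl). All groups were grown as adherent cultures in DMEM with serum and antibiotics, harvested near confluence, and sequenced from DNase-treated, polyA-selected RNA. The promoters, whether each line was a clone or a pool, and whether 3XCTL carried the vectors of MYC-OE are not given in the sources used here. Nothing in the labels says that replicates came from separate cultures, so p-values measure the spread between these libraries, which may be technical.

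Both strands of mitochondrial DNA are transcribed as long RNAs that span many genes, and the tRNAs between the rRNA and protein genes are cut out, which frees the RNAs on either side. The protein genes encode core subunits of respiratory chain complexes I, III and IV and of the ATP synthase, complex V, while all other subunits, the mitochondrial ribosomal proteins and the transcription and RNA-processing enzymes come from nuclear genes. Mitochondrial mRNAs and rRNAs end in short polyA tails, MT-ND6 is known to lack one, and tRNAs end in CCA. Counts from polyA-selected libraries therefore describe how much of each RNA was captured and not how much of it the cells held. In bulk libraries, fewer mitochondrial transcripts per cell and more of all other RNA cannot be told apart.

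The tRNA genes that flank the rRNA genes are shown first, because results in 3XSR, MYC-OE and 1xSRSF3 turn on them, together with MT-TD, which had the largest fold change in 3XSR. Sequences are those of GENCODE release 29 (GRCh38, chrM, plus strand), 5′ to 3′, with the anticodon in capitals. MT-TF, for phenylalanine tRNA, lies at chrM:577-647 directly before MT-RNR1, MT-TV, for valine tRNA, at chrM:1602-1670 between the rRNA genes, MT-TL1, for a leucine tRNA, at chrM:3230-3304 between MT-RNR2 and MT-ND1, and MT-TD, for aspartate tRNA, at chrM:7518-7585 before MT-CO2.
MT-TF: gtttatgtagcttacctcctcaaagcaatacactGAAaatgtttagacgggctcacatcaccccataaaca
MT-TV: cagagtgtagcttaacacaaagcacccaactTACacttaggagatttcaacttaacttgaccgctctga
MT-TL1: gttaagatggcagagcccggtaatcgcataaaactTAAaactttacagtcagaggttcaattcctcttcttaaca
MT-TD: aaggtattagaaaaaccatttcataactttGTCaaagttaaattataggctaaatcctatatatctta

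The tRNA genes are 59 to 75 bases long, shorter than the 150 bp reads, so in these counts a cut-out tRNA and a longer RNA that runs through its gene cannot be told apart. The reading frames of the ATP synthase subunits overlap by 46 bases on the same strand, so their counts could be split between them. Those of MT-ND4L and MT-ND4 share 7 bases (chrM:10760-10766). Each of the 13 mRNAs counted here is a protein gene, and RNA that spans both genes of such a pair bears on both counts. The 2 genes of a pair are therefore not independent of each other. The bases shared by MT-ATP8 (chrM:8366-8572) and MT-ATP6 (chrM:8527-9207), at chrM:8527-8572, are shown with the start codon of MT-ATP6 in capitals.
MT-ATP8 and MT-ATP6: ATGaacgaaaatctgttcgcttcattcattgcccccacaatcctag

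Of the genes, 1 mRNA (MT-ND6) and 8 tRNAs are encoded on the minus strand of the reference, opposite to the rest. The strand setting of the counting is not given in the sources used here, so for these genes RNA of the opposite strand cannot be told apart from their own. The nuclear genome also holds near-identical copies of mitochondrial sequence, between which reads could be split. Counts on the nuclear copy MTATP6P1 were 33.2% to 37.9% of those on MT-ATP6, on MTCO1P12 19.0% to 22.6% of MT-CO1, on MTND2P28 13.4% to 16.4% of MT-ND2 and on MTND1P23 8.60% to 11.9% of MT-ND1.

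Library totals ran from 143269192 to 303323552 counts. SRSF2 mRNA itself did not pass the test in libraries labelled 3XSR (log2 fold change -0.06, SE 0.0516, adjusted p = 0.389 by edgeR) or 1xSRSF2 (log2 fold change -0.16, SE 0.0640, adjusted p = 0.0980 by edgeR). SRSF3 rose in 3XSR and 1xSRSF3, SRSF7 in 3XSR and 1xSRSF7, and MYC in MYC-OE, with log2 fold changes of 0.31, 0.49, 0.44, 0.26 and 0.90 (edgeR adjusted p from 5.70e-08 to 0.00616). MYC also rose in 3XSR, by 0.75 (edgeR adjusted p = 4.01e-07), and SRSF3 and SRSF7 in 1xSRSF2, by 0.30 and 0.24 (edgeR adjusted p = 0.00794 and 0.00681). MYC was also higher in 1xSRSF3 (0.26) and 1xSRSF7 (0.27), and SRSF2 lower in MYC-OE (-0.48) and 1xSRSF7 (-0.38; edgeR adjusted p from 2.32e-05 to 0.00608). The 7 epithelial markers examined were present in every library, from 45.2 CPM for KRT17 upwards, whereas the leukocyte genes CD3E and PTPRC and the fibroblast gene COL1A2 stayed at or below 0.539 CPM. The fibroblast genes LUM (5.51 to 39.7 CPM) and COL1A1 (5.46 to 15.7) and the macrophage gene CD68 (5.92 to 36.1) were detected in every library. Of the receptors whose absence defines triple-negative tumours, PGR was at 0 in 12 libraries and at most 1.46 CPM, ESR1 was at 6.49 to 11.5 CPM and ERBB2 at 99.6 to 184 CPM. A pair of libraries stood apart. In 1xCtrl replicate 2 the mitochondrial genes took 10.3% of counts against a mean of 12.7% in the other 1xCtrl libraries, and RNAs without a polyA tail (histone genes and small structural RNAs) took 0.0201% against 0.00984%. In 1xSRSF3 replicate 1 the latter took 0.0264% against 0.0155%. Without both libraries SRSF2 passed as lower in 1xSRSF2 (-0.21, edgeR adjusted p = 0.0101) and MYC as higher (0.17, edgeR adjusted p = 0.0194). The counts of mitochondrial genes called in the single lines are given with and without them, as are the shares and ratios that the results turn on. Without them 1xCtrl and 1xSRSF3 hold 2 libraries each, so a lack of overlap weighs less than with 3 against 3.

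The share of all counts that fell on the 37 genes was close to that of the control in 3XSR and lower in MYC-OE and 1xSRSF7. It was 10.9, 12.2 and 11.4% in the replicates of 3XCTL, 10.5, 12.3 and 11.9% in 3XSR and 9.36, 9.75 and 9.62% in MYC-OE. Every MYC-OE library lay below every library of 3XCTL and 3XSR, while 3XSR and 3XCTL overlapped. In the second table the share was 12.8, 10.3 and 12.5% in 1xCtrl, 11.8, 12.8 and 13.6% in 1xSRSF2, 10.2, 12.6 and 10.4% in 1xSRSF3 and 10.1, 9.83 and 9.23% in 1xSRSF7. All 3 libraries of 1xSRSF7 lay below those of 1xCtrl, and the other single lines overlapped their control. The log2 ratios of the mean shares were 0.01 for 3XSR (exact permutation p = 0.9, two-sided), -0.26 for MYC-OE (p = 0.1), 0.10 for 1xSRSF2 (p = 0.5), -0.11 for 1xSRSF3 (p = 0.5) and -0.29 for 1xSRSF7 (p = 0.1), all by the exact permutation test. With 3 libraries against 3 this exact permutation test cannot go below p = 0.1, so no share or ratio of this kind can pass a threshold of 0.05; 30 such measures were computed in 9 comparisons, 270 tests in all, and adjustment for them leaves each p at 0.1 or above. Counting error was small beside the spread between replicates, since the 95% Wilson interval of a share was at most 0.00531 percentage points to either side. Without 1xCtrl replicate 2 the log2 ratio of 1xSRSF7 was -0.38, that of 1xSRSF3 -0.20 and that of 1xSRSF2 0.01, and without 1xSRSF3 replicate 1 that of 1xSRSF3 was -0.05.

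The mRNAs and rRNAs did not move alike. Of all mitochondrial counts, the 13 mRNAs held 64.5% to 71.4%, the 2 rRNAs 28.2% to 35.1% and the 22 tRNAs 0.352% to 0.511%. In MYC-OE the mRNAs took 6.12, 6.29 and 6.303% of library counts, below the 7.69, 8.35 and 7.81% of 3XCTL, whereas the rRNAs took 3.19, 3.42 and 3.28%, overlapping the 3.13, 3.800 and 3.58% of 3XCTL (exact permutation p = 0.4). The ratio of mRNA to rRNA counts, which does not depend on depth or scaling, was 1.89 ± 0.0450 (SD, n = 3) in MYC-OE, 2.28 ± 0.155 in 3XCTL and 2.29 ± 0.0805 in 3XSR. No MYC-OE library reached the lowest value of either other group (exact permutation p = 0.1 for each). In the second table this ratio was 2.09 ± 0.0666 in 1xCtrl, 2.35 ± 0.0260 in 1xSRSF2, 2.39 ± 0.192 in 1xSRSF3 and 2.002 ± 0.0599 in 1xSRSF7. All libraries of 1xSRSF2 and 1xSRSF3 lay above those of 1xCtrl (exact permutation p = 0.1 for each), and 1xSRSF7 overlapped its control (exact permutation p = 0.3). As a log2 ratio to 1xCtrl, 1xSRSF3 stood at 0.19, and at 0.26 without its replicate 1. Without that library and 1xCtrl replicate 2 it stood at 0.24, 1xSRSF2 at 0.16 and 1xSRSF7 at -0.07, with 1xSRSF7 alone overlapping 1xCtrl. The rRNA shares of 1xSRSF3 and 1xSRSF7, which overlapped 1xCtrl with all libraries, then lay below it (log2 ratios -0.32 and -0.33). These comparisons held 2 libraries against 2 for 1xSRSF3 and 3 against 2 for 1xSRSF7.

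**Figure D1:**
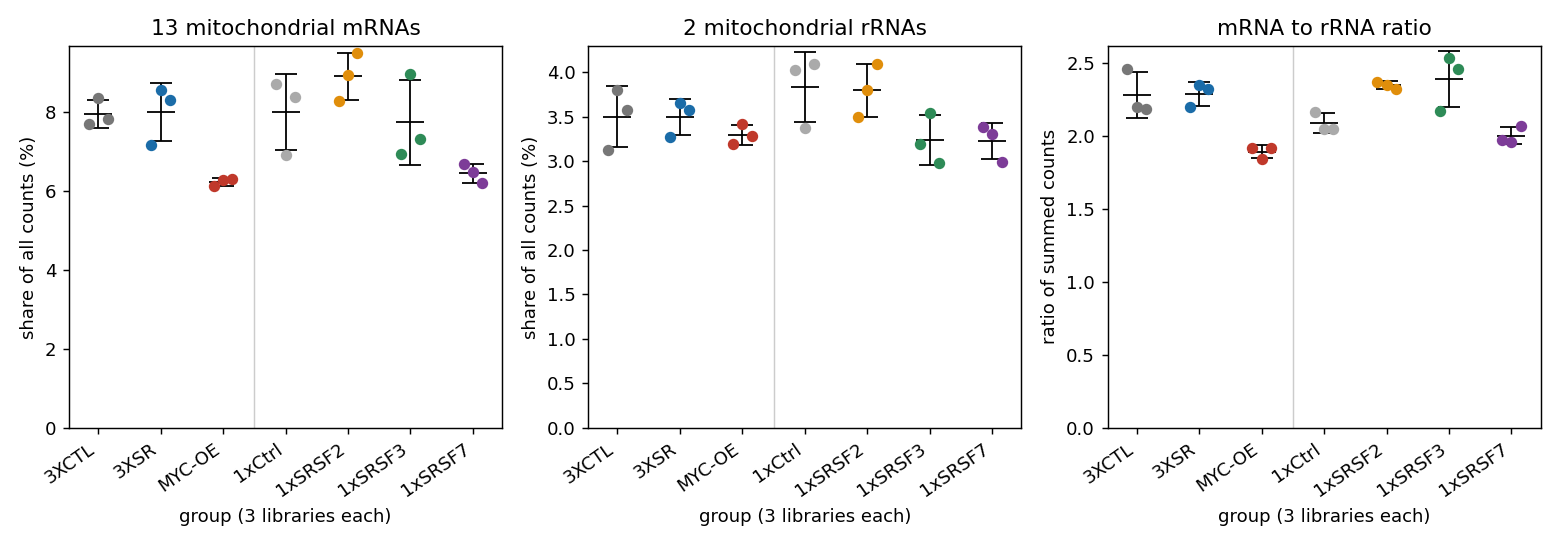
Share of all counts taken by the 13 mRNAs and the 2 rRNAs (percent, vertical axes from 0) and the ratio of mRNA to rRNA counts, for the 7 groups; points are the 3 libraries of a group, bars mean and SD, and a grey line parts the tables. The mRNA share and the ratio of MYC-OE lie below all 3XCTL libraries, and the rRNA shares overlap.

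Levels are given as CPM, counts per 1000000 of the library size after TMM scaling, and per kilobase of gene where genes are compared. Per kilobase, MT-RNR2, the rRNA of the large mitoribosomal subunit, was highest in all 7 groups (group means from 18781 to 22739.9 CPM per kb), followed in all groups by MT-CO1, the catalytic subunit of cytochrome c oxidase (12058 to 16604). MT-CO2, MT-CO3, MT-ND4L, MT-ND4 and MT-ATP8 came next and exchanged ranks 3 to 7 between groups. In 3XCTL, for example, MT-ND4L at 9599 ± 975 (SD, n = 3), MT-ND4 at 9312 ± 517 and MT-ATP8 at 9030.0 ± 1016 CPM per kb did not differ beyond their spread. MT-ATP6 held rank 8, MT-ND1 and MT-ND2 ranks 9 and 10, and MT-CYB, MT-ND3 and MT-RNR1, the rRNA of the small mitoribosomal subunit, ranks 11 to 13 in every group. MT-ND5 was 14th, and MT-ND6, the light-strand mRNA, was lowest of the 15 in each group (262 to 512 CPM per kb). The order among these genes changed little between the lines.

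**Figure D2:**
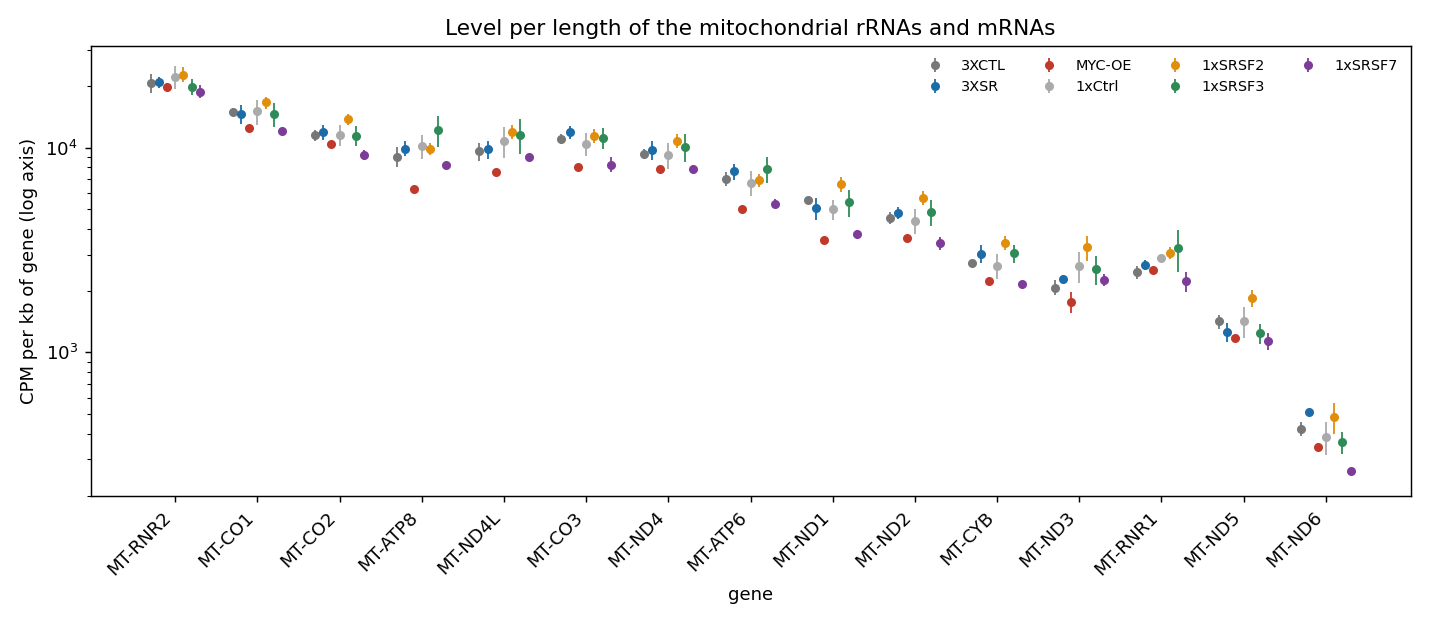
Level of the 2 rRNAs and 13 mRNAs in CPM per kb (vertical axis logarithmic) for the 7 groups; points are means of 3 libraries and bars the SD. MT-RNR2 and MT-CO1 lead in all groups and MT-ND5 and MT-ND6 are lowest.

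Among the tRNA genes, MT-TY (tyrosine), MT-TS1 (serine), MT-TL1, MT-TC (cysteine), MT-TF and MT-TV held 93.2% to 97.0% of tRNA counts. The highest were MT-TY, with group means from 137 to 214 CPM, and MT-TS1, with 96.7 to 159 CPM, followed by MT-TL1, with 46.9 to 105 CPM. MT-TY, MT-TC and MT-TS1 lie on the minus strand of the reference. The other 16 tRNAs had between 11 and 1813 counts each per library.

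Most mitochondrial genes fell in MYC-OE. Of 37 genes 24 fell and none rose (edgeR quasi-likelihood F test, adjusted p under 0.05), where 17.3% of all 23160 genes tested fell and 18.0% rose. Those that fell were 12 of 13 mRNAs and 12 of 22 tRNAs, and neither rRNA passed the test. The median log2 fold change over the 37 genes was -0.43, against -0.00 over all genes tested.

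The rRNAs came first along the heavy-strand transcript. MT-RNR1 (chrM:648-1601) stood at 2197, 2532 and 2321 CPM in 3XCTL and at 2407, 2461 and 2366 CPM in MYC-OE (log2 fold change 0.04, SE 0.0617, adjusted p = 0.687 by edgeR). MT-RNR2 (chrM:1671-3229) stood at 28462, 35483 and 32818 CPM in 3XCTL and at 29800.1, 32199 and 30846 CPM in MYC-OE (log2 fold change -0.06, SE 0.0785, adjusted p = 0.602 by edgeR). For both rRNAs the groups overlapped.

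All 7 complex I mRNAs fell in MYC-OE, by a log2 fold change from -0.66 to -0.24. MT-ND1 (chrM:3307-4262), the first mRNA after the rRNA genes, stood at 5175, 5439.9 and 5369 CPM in 3XCTL and 3275, 3312 and 3528 CPM in MYC-OE (log2 fold change -0.66, SE 0.0774, adjusted p = 4.25e-05 by edgeR). All 3 MYC-OE libraries lay well below all 3XCTL libraries, and this was the largest fold change of any mitochondrial mRNA there. MT-ND2 followed with -0.33 and MT-ND4L with -0.34, while MT-ND6, read from the other strand, stood at 186, 186 and 173 CPM against 205, 239.7 and 222 CPM in 3XCTL, a log2 fold change of -0.29 (edgeR adjusted p = 0.00317) with no overlap. MT-CYB, the mitochondrially encoded subunit of complex III, changed by -0.30 (edgeR adjusted p = 0.00499).

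The overlapping ATP synthase genes, whose counts are not independent of each other, both fell in MYC-OE. MT-ATP8 stood at 1725, 2110.4 and 1772 CPM in 3XCTL and 1271, 1305 and 1315 CPM in MYC-OE (log2 fold change -0.53, SE 0.0799, adjusted p = 3.00e-04 by edgeR). MT-ATP6 stood at 4596, 5244 and 4554 CPM in 3XCTL and 3346, 3388 and 3467 CPM in MYC-OE (log2 fold change -0.50, SE 0.0721, adjusted p = 2.18e-04 by edgeR). The groups did not overlap for either gene, and the MYC-OE replicates lay close together. The cytochrome c oxidase mRNAs were uneven: MT-CO3, next to MT-ATP6 on the genome, changed by -0.45 and MT-CO1 by -0.26 (edgeR adjusted p = 1.33e-04 and 0.0150). MT-CO2 was the mRNA that missed the threshold (log2 fold change -0.14, SE 0.0673, adjusted p = 0.134 by edgeR), although its 6949, 7168 and 7242 CPM in MYC-OE lay below the 7438, 8353 and 7719.5 CPM of 3XCTL.

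Among the tRNA genes called in MYC-OE, the largest decreases were at MT-TM (methionine), MT-TW (tryptophan), MT-TV, MT-TL1, MT-TQ (glutamine), MT-TI (isoleucine) and MT-TA (alanine), with log2 fold changes from -0.96 to -0.81. MT-TH (histidine), MT-TN (asparagine), MT-TK (lysine), MT-TT (threonine) and MT-TE (glutamate) fell less, from -0.66 to -0.41. MT-TL1 had 84.5, 92.1 and 87.8 CPM in 3XCTL and 45.2, 47.1 and 48.5 CPM in MYC-OE (log2 fold change -0.91, SE 0.0733, adjusted p = 1.91e-06 by edgeR). The abundant light-strand tRNA genes MT-TY, MT-TC and MT-TS1 had log2 fold changes of 0.02, 0.10 and -0.25 and did not pass the test. Of the 24 decreases 17 were called under every alternative tried; MT-CO1, MT-ND3, MT-ND4, MT-ND5, MT-TK, MT-TN and MT-TT were lost under at least 1, and of these MT-CO1 and MT-ND5 were lost only without MYC-OE replicate 1. MT-ND4 was lost without any 1 MYC-OE replicate or 3XCTL replicate 2, MT-TN without MYC-OE replicate 3 or 3XCTL replicate 2, and MT-TK without MYC-OE replicate 1 or 3 or 3XCTL replicate 3. MT-TT was lost without MYC-OE replicate 1 or 3 or 3XCTL replicate 2 or 3, and MT-ND3 without replicate 2 or 3 of either group, under RLE or upper-quartile scaling, without the low-count filter, with limma-voom, with a replicate block and in a fit on the 2 groups alone. RNAs without a polyA tail took 0.0153 ± 4.36e-04% of counts in MYC-OE and 0.0108 ± 0.00208% in 3XCTL (SD, n = 3), with no overlap, and the nuclear copies of mitochondrial sequence took 0.626 ± 0.00751% against 0.801 ± 0.0123%. The part of RNAs without a tail in the decrease was not tested. With the counts on the 4 most abundant nuclear copies added to their mitochondrial genes, 24 genes were called lower, all of them among the 24 above.

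**Figure D3:**
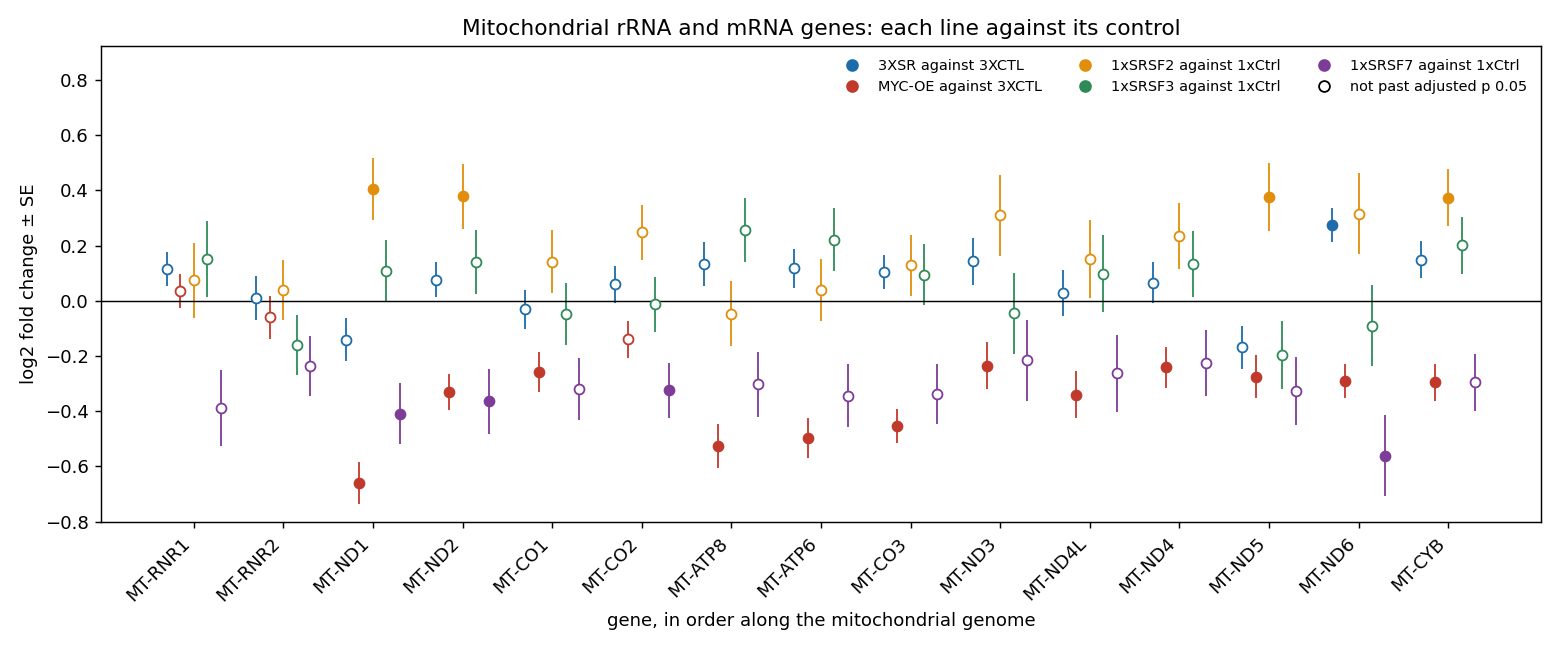
Log2 fold change with SE of the 2 rRNAs and 13 mRNAs, in genome order, in each line against its control; filled points passed an edgeR adjusted p of 0.05 and open points did not. In MYC-OE all 13 mRNAs lie below 0, from -0.66 to -0.14, and both rRNAs lie near 0.

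In 3XSR, which shares its control with MYC-OE, the mRNAs stayed near the control and the changes fell on single tRNA genes. Of 37 genes 2 rose and 5 fell, against 15.3% and 13.7% of all genes tested, so the share called was no larger than that of all genes. The median log2 fold change was 0.01. Neither rRNA passed the test, with 0.12 for MT-RNR1 at 2381, 2628 and 2627 CPM and 0.01 for MT-RNR2 at 30296, 34005 and 33187 CPM.

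MT-TF and MT-TV, the tRNA genes that precede MT-RNR1 and MT-RNR2, fell most in 3XSR. MT-TF had 25.6, 34.9 and 29.6 CPM in 3XCTL and 16.9, 19.2 and 17.7 CPM in 3XSR (log2 fold change -0.74, SE 0.0982, adjusted p = 1.70e-04 by edgeR). MT-TV had 22.5, 27.5 and 24.7 CPM in 3XCTL and 13.8, 16.5 and 14.8 CPM in 3XSR (log2 fold change -0.73, SE 0.0870, adjusted p = 7.08e-05 by edgeR). For both genes every 3XSR library lay below every 3XCTL library. MT-TL1, after MT-RNR2, fell less, from 84.5, 92.1 and 87.8 CPM to 65.2, 80.1 and 77.1 CPM (log2 fold change -0.25, SE 0.0727, adjusted p = 0.0224 by edgeR). MT-TT fell by 0.57 and MT-TW by 0.47 on the log2 scale (by edgeR, at adjusted p of 0.00805 and 0.0260).

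MT-TD and MT-ND6 rose in 3XSR. Of 54 genes of RNAs without a polyA tail tested there, 13 rose and 2 fell (15.3% and 13.7% of all genes). The part of such RNAs in these increases was not tested. MT-TD rested on few counts: 19, 35 and 28 in the 3XCTL libraries and 73, 76 and 47 in 3XSR, or 0.0788, 0.189 and 0.156 CPM and 0.400, 0.386 and 0.328 CPM (log2 fold change 1.41, SE 0.479, adjusted p = 0.0450 by edgeR). The groups did not overlap, yet the call was lost when any 1 library other than 3XCTL replicate 2 was left out. MT-ND6 had 205, 239.7 and 222 CPM in 3XCTL and 277, 272 and 257 CPM in 3XSR (log2 fold change 0.27, SE 0.0619, adjusted p = 0.00569 by edgeR), and all 3XSR libraries lay above all 3XCTL libraries. Per 1000 counts of the heavy-strand mRNAs, MT-ND6 had 3.88, 3.17 and 3.103 counts in 3XSR and 2.73, 2.88 and 2.899 in 3XCTL, again with no overlap. Of the other mRNAs, those with the largest fold changes were MT-ND5 (log2 fold change -0.17, SE 0.0775, adjusted p = 0.127 by edgeR) and MT-CYB (log2 fold change 0.15, SE 0.0679, adjusted p = 0.122 by edgeR), and neither passed. MT-ND5 had 2428, 2803 and 2470.4 CPM in 3XCTL and 2013, 2470.1 and 2371 CPM in 3XSR, and MT-CYB 3035, 3181 and 3134 and 3058, 3699.7 and 3613 CPM, with overlap for both. Of the 7 calls, MT-TF, MT-TV, MT-TT and MT-ND6 held under every alternative; leaving out 3XCTL replicate 3 left 4 calls, without MT-TL1, MT-TW and MT-TD.

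MYC-OE and 3XSR were also compared directly. Of 37 genes 23 were lower in MYC-OE and 1 was higher, where 17.6% and 17.3% of all genes tested were. The lower genes were 12 of 13 mRNAs, all but MT-ND5, and 11 tRNAs, and the median log2 fold change was -0.44. The largest difference was at MT-TD (-1.84), on few counts, and among the mRNAs MT-ATP8 differed by -0.66, MT-ATP6 by -0.61, MT-ND6 by -0.56 and MT-CO3 by -0.56 (edgeR adjusted p from 4.57e-05 to 8.87e-05). The exception was MT-TF, which was higher in MYC-OE than in 3XSR (log2 fold change 0.59, SE 0.0981, adjusted p = 7.54e-04 by edgeR). In MYC-OE MT-TF had 26.2, 28.5 and 26.4 CPM, within the range of 3XCTL, while MT-TV with 12.7, 13.2 and 13.7 CPM was low in both lines. The direct difference at MT-TV did not pass the test (log2 fold change -0.19, SE 0.0869, adjusted p = 0.121 by edgeR).

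**Figure D4:**
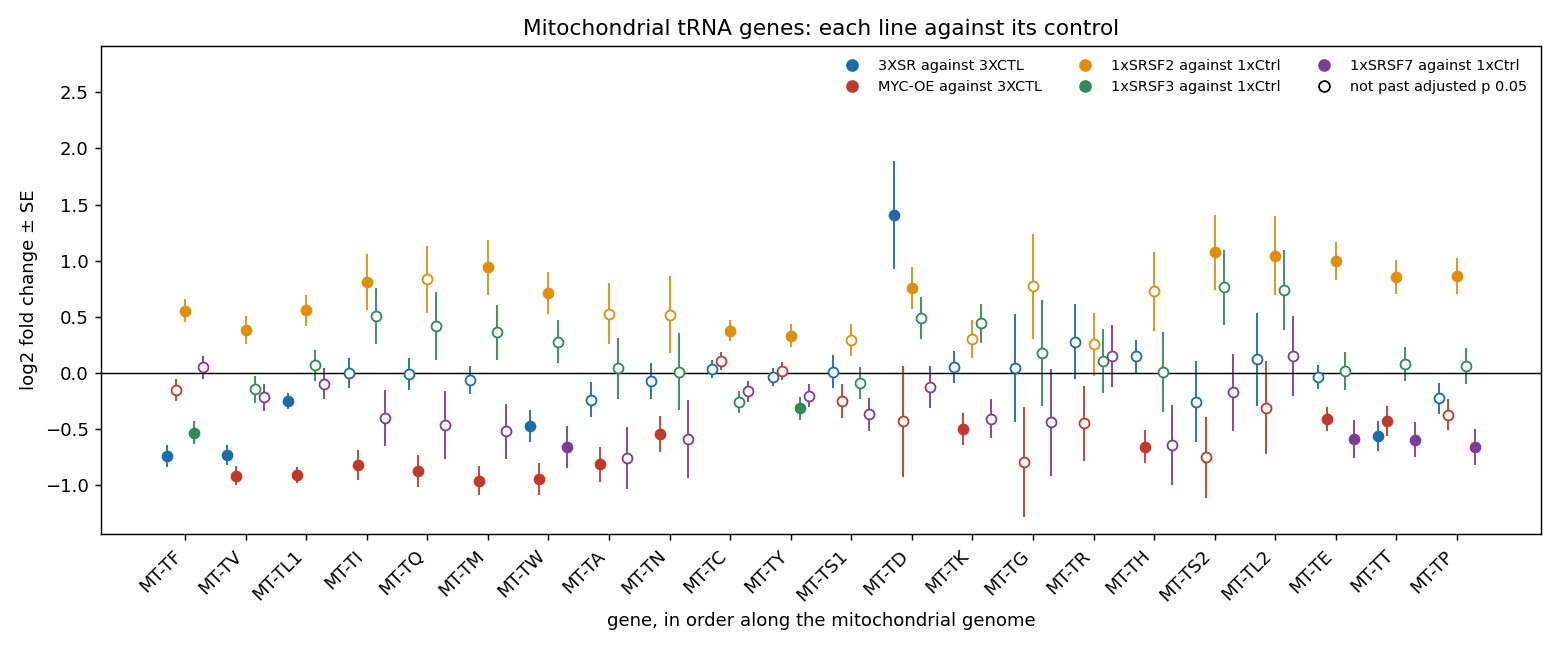
Log2 fold change with SE of the 22 tRNA genes, in genome order, in each line against its control; filled points passed an edgeR adjusted p of 0.05. MT-TF and MT-TV lie low in 3XSR, 12 genes are filled below 0 in MYC-OE, and 14 are filled above 0 in 1xSRSF2.

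The 3 single lines share 1xCtrl, so their fold changes against it are not independent of each other. In the libraries labelled 1xSRSF2, single mitochondrial genes were higher than in 1xCtrl after TMM scaling, most of them tRNA genes. The share of counts on the 37 genes, taken without that scaling, overlapped 1xCtrl, at a log2 ratio of 0.10. Without 1xCtrl replicate 2 and 1xSRSF3 replicate 1 that ratio was 0.01. TMM factors were 0.986 to 0.994 in 1xSRSF2 and 1.02 to 1.05 in 1xCtrl. With total counts alone as the scaling, MT-ND2, MT-ND5, MT-TV, MT-TL2 and MT-TY were not called. Of 37 genes 18 rose and none fell, against 11.6% and 11.9% of all 24362 genes tested, with a median log2 fold change of 0.38 over the 37 genes and -0.01 over all genes. Those that rose were 14 of 22 tRNAs and 4 of 13 mRNAs, MT-ND1, MT-ND2, MT-ND5 and MT-CYB. No rRNA, no mRNA of cytochrome c oxidase and no mRNA of the ATP synthase passed the test.

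MT-RNR1 stood at 2809, 2699.9 and 2806 CPM in 1xCtrl and 2720.1, 2916 and 3123 CPM in 1xSRSF2 (log2 fold change 0.08), and MT-RNR2 at 36770.1, 29470.1 and 37228 and 32428, 35542 and 38384 CPM (log2 fold change 0.04). The rRNA levels of the groups overlapped. MT-ND1 stood at 5209, 4175 and 4974 CPM in 1xCtrl and 5748, 6475 and 6785 CPM in 1xSRSF2 (log2 fold change 0.40, SE 0.112, adjusted p = 0.0184 by edgeR). MT-ND2 stood at 4978, 3838 and 4886 CPM in 1xCtrl and 5556, 5830.3 and 6429 CPM in 1xSRSF2 (log2 fold change 0.38, SE 0.117, adjusted p = 0.0321 by edgeR). For both genes all 1xSRSF2 libraries exceeded all control libraries. MT-ND5 overlapped narrowly, with 3048, 2201 and 2464 CPM in 1xCtrl and 2997, 3368 and 3655 CPM in 1xSRSF2 (log2 fold change 0.38, SE 0.124, adjusted p = 0.0426 by edgeR). MT-CYB rose by 0.37 (edgeR adjusted p = 0.0187), while MT-ATP8 had -0.05 and MT-ATP6 0.04 on the log2 scale. MT-ND6 stood at 242, 167 and 201 CPM in 1xCtrl and 218, 240.5 and 301 CPM in 1xSRSF2, with overlap, and did not pass (log2 fold change 0.32, SE 0.147, adjusted p = 0.154 by edgeR).

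The tRNA genes with the smallest adjusted p in 1xSRSF2 were MT-TE, MT-TT, MT-TF and MT-TP. MT-TE, for glutamate tRNA on the minus strand, had 3.798, 2.55 and 3.72 CPM in 1xCtrl and 5.87, 7.38 and 6.85 CPM in 1xSRSF2 (log2 fold change 1.00, SE 0.169, adjusted p = 9.90e-04 by edgeR). MT-TF had 28.9, 23.7 and 29.3 CPM in 1xCtrl and 37.1, 40.3 and 42.8 CPM in 1xSRSF2 (log2 fold change 0.55, SE 0.101, adjusted p = 0.00164 by edgeR). The groups did not overlap at either gene. MT-TP (proline) rose by 0.86 and MT-TT by 0.85, and MT-TL1 by 0.56. MT-TY, MT-TC, MT-TV, MT-TW, MT-TD, MT-TI, MT-TM, MT-TL2 (leucine) and MT-TS2 (serine) rose by 0.33 to 1.08. Of the 18 increases 6 held under every alternative, all of them tRNAs (MT-TF, MT-TL1, MT-TD, MT-TE, MT-TT and MT-TP). None of the 4 mRNA increases was called without 1xSRSF2 replicate 2 or without 1xSRSF2 replicate 3, and MT-ND2 and MT-ND5 were also lost without 1xCtrl replicate 2. Leaving out 1xSRSF2 replicate 3 left 6 calls and leaving out 1xSRSF2 replicate 2 left 9; without 1xCtrl replicate 2 there were 13, and without it and 1xSRSF3 replicate 1 there were 14, all higher.

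The libraries of 1xSRSF3 differed little from 1xCtrl at single mitochondrial genes. No gene rose and 2 fell, against 15.0% and 14.1% of all genes tested, and the median log2 fold change was 0.09 over the 37 genes and -0.03 over all genes. The share of counts, taken without TMM scaling, had the opposite sign, at a log2 ratio of -0.11. TMM factors were 0.945 to 0.961 in 1xSRSF3 and 1.02 to 1.05 in 1xCtrl, so the sign of small fold changes depends on the scaling. MT-TF fell, with 17.3, 20.7 and 18.5 CPM against 28.9, 23.7 and 29.3 CPM in 1xCtrl (log2 fold change -0.54, SE 0.101, adjusted p = 0.00144 by edgeR), and the groups did not overlap. MT-TY fell with overlap, from 191, 149 and 171 CPM to 121, 157 and 133 CPM (log2 fold change -0.32, SE 0.102, adjusted p = 0.0329 by edgeR). Among the mRNAs, none of which passed with all libraries, the largest fold changes were at MT-ATP8 (0.26), MT-ATP6 (0.22) and MT-CYB (0.20). Without 1xSRSF3 replicate 1, MT-ATP8 passed as higher (0.31, edgeR adjusted p = 0.0466). MT-ATP8 stood at 2154, 3003 and 2385 CPM against 2299, 1780.4 and 2233 CPM in 1xCtrl, and MT-ATP6 at 4839.7, 6234 and 4983 against 5109, 3887 and 4769 CPM. MT-CYB stood at 3172, 3881 and 3354 against 3266, 2537 and 3252 CPM. All 3 overlapped the control, with 1xSRSF3 replicate 2 the highest library at each. MT-RNR1 was 3856, 2932 and 2448 CPM, highest in replicate 1, the library with the largest share of RNAs without a polyA tail, and MT-RNR2 was 29976, 34040.1 and 28603 CPM, and neither passed; the part of those RNAs in these levels was not tested. MT-ND6 stood at 191, 214 and 168 CPM and did not pass (log2 fold change -0.09). The call at MT-TF held under every alternative, and that at MT-TY was lost with a replicate block and in a fit on the 2 groups alone. MT-TC did not pass, but it was called lower under every other scaling and filter and with DESeq2. Its log2 fold changes there ran from -0.37 to -0.26 (adjusted p from 0.00859 to 0.0401 by edgeR or DESeq2). It was also called lower without 1xSRSF3 replicate 2, 1xCtrl replicate 2 or 1xCtrl replicate 3. Without 1xCtrl replicate 2 there were 5 decreases, without 1xCtrl replicate 3 there were 3 increases and 3 decreases, and without 1xCtrl replicate 2 and 1xSRSF3 replicate 1 there were 3 decreases.

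In 1xSRSF7 the fold changes of the mitochondrial genes were mostly negative, and how many passed the test depended on single libraries. Of 37 genes none rose and 8 fell, against 9.03% and 8.26% of all genes tested, and the median log2 fold change was -0.34 over the 37 genes and -0.00 over all genes. The genes that fell were the complex I mRNAs MT-ND1, MT-ND2 and MT-ND6, the cytochrome c oxidase mRNA MT-CO2 and the tRNAs MT-TW, MT-TE, MT-TT and MT-TP. MT-ND6 stood at 242, 167 and 201 CPM in 1xCtrl and 142, 139.8 and 131 CPM in 1xSRSF7 (log2 fold change -0.56, SE 0.147, adjusted p = 0.0236 by edgeR). MT-ND1 stood at 3754, 3679.7 and 3385 CPM in 1xSRSF7 (log2 fold change -0.41, SE 0.112, adjusted p = 0.0236 by edgeR) and MT-ND2 at 3785, 3605 and 3253 CPM (log2 fold change -0.36, SE 0.117, adjusted p = 0.0479 by edgeR). At all 3 genes every 1xSRSF7 library was below every 1xCtrl library. All 13 mRNAs had a negative log2 fold change, from -0.56 to -0.22, and the called tRNAs lay between -0.66 and -0.59. MT-RNR1, with 2261, 2242 and 1848 CPM, had a log2 fold change of -0.39 and MT-RNR2, with 30739.8, 30321 and 26780.0 CPM, of -0.24; neither passed (edgeR adjusted p = 0.0720 and 0.158).

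None of the 8 calls in 1xSRSF7 held under every alternative. Leaving out 1xCtrl replicate 2, the control library with the lowest mitochondrial share, gave 24 decreases, and leaving out 1xSRSF3 replicate 1 as well gave 26. Because 1xCtrl replicate 2 was set apart partly by that low share, leaving it out raises the mitochondrial level of the control. Leaving out 1xCtrl replicate 1 or 1xCtrl replicate 3 gave 4, and leaving out 1xSRSF7 replicate 3, which had the lowest mitochondrial share of that line, gave 1. DESeq2 called 16 decreases, a fit on the 2 groups alone 3, and MT-ND2 was lost when nuclear copies were added to its counts. The nuclear copies took 0.617 ± 0.0254% of counts in 1xSRSF7 and 0.759 ± 0.0889% in 1xCtrl (SD, n = 3) with no overlap.

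The single lines were also compared with each other. Relative to 1xSRSF7, 31 of 37 genes were higher in 1xSRSF2 and none lower (background 11.5% and 12.8%), including 11 of 13 mRNAs, 19 of 22 tRNAs and MT-RNR1, with a median log2 fold change of 0.70. The largest were at MT-TE (1.59), MT-TP (1.52) and MT-TM (1.46), and among the mRNAs at MT-ND6 (0.88) and MT-ND1 (0.81). Relative to 1xSRSF7, 21 genes were higher in 1xSRSF3 and 1 lower (background 17.8% and 17.3%). That 1 gene was MT-TF (log2 fold change -0.58, SE 0.101, adjusted p = 5.93e-04 by edgeR), and both ATP synthase mRNAs were among the higher ones (0.56 and 0.57). Leaving out 1xSRSF3 replicate 2 or 1xSRSF7 replicate 3 left 12 higher and 1 lower. Between 1xSRSF2 and 1xSRSF3, 9 genes were higher in 1xSRSF2 and none lower (background 12.6% and 14.1%, 26.8% in either direction): MT-ND5 and 8 tRNAs, of which MT-TF differed most (log2 fold change 1.09, SE 0.102, adjusted p = 8.55e-06 by edgeR). Without 1xSRSF3 replicate 2 this count was 18. Without 1xCtrl replicate 2 and 1xSRSF3 replicate 1, there were 34 higher genes between 1xSRSF2 and 1xSRSF7, 21 higher and 1 lower between 1xSRSF3 and 1xSRSF7, and 9 higher and 1 lower between 1xSRSF2 and 1xSRSF3.

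The tRNA genes beside the rRNAs were set against MT-RNR2 within each library, a ratio free of scaling. For MT-TF the counts per 1000 MT-RNR2 counts were 0.900, 0.983 and 0.901 in 3XCTL, 0.558, 0.565 and 0.534 in 3XSR and 0.879, 0.884 and 0.854 in MYC-OE. In the second table they were 0.785, 0.803 and 0.786 in 1xCtrl, 1.14, 1.13 and 1.11 in 1xSRSF2, 0.578, 0.608 and 0.645 in 1xSRSF3 and 0.931, 1.01 and 0.946 in 1xSRSF7. Each line differed from its control with no overlap (exact permutation p = 0.1 for each): 3XSR, MYC-OE and 1xSRSF3 lay lower, 1xSRSF2 and 1xSRSF7 higher, and MYC-OE only slightly so. The replicates lay close together, also in 1xCtrl, where the deviating replicate 2 had a ratio like the others.

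For MT-TV the ratio to 1000 MT-RNR2 counts was 0.773 ± 0.0205 (SD, n = 3) in 3XCTL, 0.461 ± 0.0215 in 3XSR and 0.427 ± 0.0170 in MYC-OE. In the single lines it was 0.491 ± 0.0212 in 1xCtrl, 0.623 ± 0.0303 in 1xSRSF2, 0.494 ± 0.0236 in 1xSRSF3 and 0.498 ± 0.0149 in 1xSRSF7. Only 1xSRSF2 was apart from 1xCtrl. For MT-TL1 the ratio was 2.75 ± 0.196 in 3XCTL, 2.28 ± 0.109 in 3XSR and 1.52 ± 0.0546 in MYC-OE, without overlap between any 2 of these groups. It was 2.06 ± 0.115 in 1xCtrl, 2.96 ± 0.0275 in 1xSRSF2, 2.41 ± 0.231 in 1xSRSF3 and 2.29 ± 0.252 in 1xSRSF7, and 1xSRSF2 was the highest of the 4. Relative to MT-RNR2, MT-TF and MT-TV were both low in 3XSR, and in MYC-OE MT-TV and MT-TL1 were low while MT-TF lay just below the control. Without 1xCtrl replicate 2 and 1xSRSF3 replicate 1, the MT-TF, MT-TV and MT-TL1 ratios of the single lines lay on the same side of 1xCtrl and overlapped it in the same cases.

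**Figure D5:**
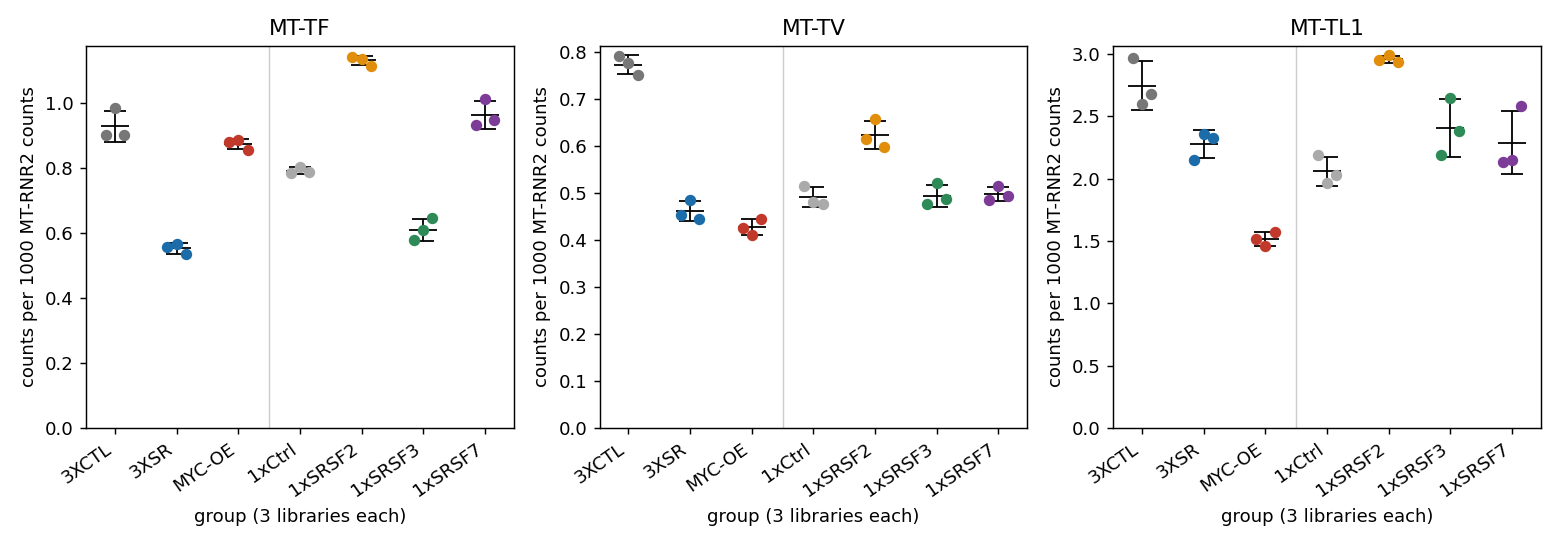
Counts of MT-TF, MT-TV and MT-TL1 per 1000 MT-RNR2 counts (vertical axes from 0) in the 7 groups; points are the 3 libraries, bars mean and SD, and a grey line parts the tables. MT-TF is low in 3XSR and 1xSRSF3, MT-TV in 3XSR and MYC-OE, and MT-TL1 lowest in MYC-OE.

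RNAs of the opposite strands were compared in the same way. The 8 light-strand tRNA genes together had 4.83, 4.805 and 4.81 counts per 1000 heavy-strand mRNA counts in 1xCtrl, 5.26, 5.24 and 5.31 in 1xSRSF2, 3.98, 3.99 and 4.01 in 1xSRSF3 and 4.97, 4.999 and 4.97 in 1xSRSF7. No pair of these groups overlapped, and the replicates of a group lay within a narrow band. In the first table the values were 3.98 ± 0.170 in 3XCTL, 3.88 ± 0.259 in 3XSR and 4.67 ± 0.225 in MYC-OE (SD, n = 3), with MYC-OE above both others. The summed counts rest mostly on MT-TY, MT-TS1 and MT-TC. Median log2 fold changes of the 8 light-strand tRNAs were -0.39 in MYC-OE and -0.04 in 3XSR. In 1xSRSF2, 1xSRSF3 and 1xSRSF7 they were 0.52, 0.01 and -0.53. Those of the 12 heavy-strand mRNAs were -0.31, 0.07, 0.24, 0.10 and -0.32 in the same order. So in MYC-OE and 1xSRSF7 the ratio lay above the control although the median light-strand tRNA fell more than the median mRNA. MT-ND6 per 1000 heavy-strand mRNA counts was 2.61 ± 0.198 in 1xCtrl, 2.81 ± 0.285 in 1xSRSF2, 2.37 ± 0.211 in 1xSRSF3 and 2.199 ± 0.0177 in 1xSRSF7, with only 1xSRSF7 apart from the control. The ratio of MYC-OE, 2.89 ± 0.153, overlapped that of 3XCTL, 2.83 ± 0.0925. Without 1xCtrl replicate 2 and 1xSRSF3 replicate 1, the light-strand tRNA ratio of every single line still did not overlap 1xCtrl. The MT-ND6 ratio of 1xSRSF3 (log2 ratio -0.23) then lay below 1xCtrl without overlap, at 2 libraries against 2. These light-strand values carry the limit on strand given above.

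The make-up of the heavy-strand mRNA pool shifted in opposite ways for MT-ND1 and the ATP synthase mRNAs in some lines. MT-ND1 made up 6.79 ± 0.252% (SD, n = 3) of mitochondrial mRNA counts in 3XCTL, 6.01 ± 0.195% in 3XSR and 5.34 ± 0.174% in MYC-OE, and 6.16 ± 0.151%, 7.03 ± 0.133%, 6.35 ± 0.124% and 5.74 ± 0.0308% in 1xCtrl, 1xSRSF2, 1xSRSF3 and 1xSRSF7. MT-ATP6 made up 6.102 ± 0.170% in 3XCTL, 6.49 ± 0.0609% in 3XSR and 5.39 ± 0.0686% in MYC-OE, and 5.89 ± 0.0751%, 5.24 ± 0.0184%, 6.59 ± 0.0603% and 5.76 ± 0.0809% in the second table in the same order. In 3XSR the share of MT-ND1 lay below and that of MT-ATP6 above the control, in 1xSRSF2 the reverse held, and in MYC-OE both lay below, each with no overlap (exact permutation p = 0.1 for each). With 1xCtrl replicate 2 and 1xSRSF3 replicate 1 left out, the MT-ND1 share of 1xSRSF3 had a log2 ratio of 0.08 with no overlap. That comparison held 2 libraries against 2, and with all libraries the ratio was 0.04 with overlap. The MT-ATP6 shares kept their side. MT-CO1 was the largest part throughout, from 27.7% in 1xSRSF3 to 30.5% in MYC-OE.

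Most nuclear genes that transcribe, process and replicate mitochondrial DNA did not pass the test in any 1 line. Of 56 such genes tested, 4 rose and 13 fell in MYC-OE, 9 rose and 3 fell in 3XSR, 13 rose and 1 fell in 1xSRSF2, 25 rose and 2 fell in 1xSRSF3, and 3 rose and 4 fell in 1xSRSF7, with medians of -0.04, 0.05, 0.09, 0.21 and -0.01 on the log2 scale. Of all genes tested, 18.0% rose and 17.3% fell in MYC-OE, 15.3% and 13.7% in 3XSR, 11.6% and 11.9% in 1xSRSF2, 15.0% and 14.1% in 1xSRSF3, and 9.03% and 8.26% in 1xSRSF7. With all libraries, and except in 1xSRSF3, the share of the list called in either direction was near or below that of all genes. In 1xSRSF2 the calls were uneven, with 13 higher and 1 lower, where all genes rose and fell about equally. When 1xCtrl replicate 2 and 1xSRSF3 replicate 1 were left out there were 18 higher and 7 lower in 1xSRSF2, 25 and 2 in 1xSRSF3, and 10 and 14 in 1xSRSF7, where 14.6% and 16.1%, 14.2% and 14.1%, and 16.4% and 13.6% of all genes were higher and lower in the same order. The share of the list called in either direction was then above that of all genes in each single line. TFAM, which packages mitochondrial DNA and activates its transcription, rose in 1xSRSF3 (log2 fold change 0.39, SE 0.0629, adjusted p = 4.48e-04 by edgeR) and 1xSRSF7 (log2 fold change 0.25, SE 0.0628, adjusted p = 0.0163 by edgeR) and had -0.05 in MYC-OE and 0.14 in 1xSRSF2, which did not pass. POLRMT, the mitochondrial RNA polymerase, passed in no line. In 1xSRSF2, 1xSRSF3 and 1xSRSF7 it had log2 fold changes of -0.05, 0.08 and 0.08, each with a wide SE of 0.322. Without 1xCtrl replicate 2 and 1xSRSF3 replicate 1 these fold changes were 0.48, 0.60 and 0.63. They still did not pass (edgeR adjusted p = 0.119, 0.0808 and 0.0526), but the test does not show that POLRMT was unchanged in the single lines. TRMT10C, a subunit of the mitochondrial RNase P that cuts tRNAs at their 5′ ends, rose in MYC-OE (0.47), 3XSR (0.48), 1xSRSF2 (0.48) and 1xSRSF3 (0.66; edgeR adjusted p from 2.40e-05 to 5.51e-04). In 1xSRSF7 it had 0.12, which did not pass. FASTKD1, of a family of mitochondrial RNA-binding proteins, rose in 3XSR (log2 fold change 0.87, SE 0.0786, adjusted p = 7.54e-06 by edgeR) and MYC-OE (log2 fold change 0.50, SE 0.0783, adjusted p = 3.78e-04 by edgeR). PPARGC1B, a coactivator of mitochondrial biogenesis genes, fell in MYC-OE (-0.48), 1xSRSF2 (-0.69), 1xSRSF3 (-0.20) and 1xSRSF7 (-0.34; edgeR adjusted p from 2.70e-05 to 0.0462). TRNT1, which adds CCA to tRNAs, fell in MYC-OE (log2 fold change -0.30, SE 0.0802, adjusted p = 0.0111 by edgeR), and SLIRP, which stabilises mitochondrial mRNAs together with LRPPRC, rose in 1xSRSF2 (log2 fold change 0.45, SE 0.0845, adjusted p = 0.00213 by edgeR), 1xSRSF3 (0.50) and MYC-OE (0.19). POLG, the mitochondrial DNA polymerase, fell in 3XSR (-0.44) and 1xSRSF3 (-0.30) and rose in 1xSRSF2 (0.27), and PRIMPOL, a primase-polymerase, fell in 3XSR (-0.38) and rose in 1xSRSF7 (0.35). ANGEL2 fell in 1xSRSF7 (-0.44) and MYC-OE (-0.19), and PPARGC1A, another coactivator, rose in 1xSRSF3 at a very low level (2.09, with 0.289 ± 0.0291 CPM against 0.0674 ± 0.0156, SD, n = 3). LRPPRC and the mitochondrial polyA polymerase MTPAP rose in 1xSRSF3 (0.30 and 0.38, edgeR adjusted p = 0.00897 and 0.00330) and passed in no other line. With the same 2 libraries left out, the calls of LRPPRC, POLG, PPARGC1A and PPARGC1B in 1xSRSF3 were lost (edgeR adjusted p = 0.0742, 0.0783, 0.149 and 0.0821), and MTPAP passed as lower in 1xSRSF7 (-0.20, edgeR adjusted p = 0.0239). ANGEL2 and TRNT1 then passed as lower in 1xSRSF2, ANGEL2 also in 1xSRSF3 and TRNT1 in 1xSRSF7, and POLG as higher in 1xSRSF7.

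The nuclear-encoded subunits of the respiratory chain included more genes that rose than fell in MYC-OE and in each of the single lines, and fewer in 3XSR. Of 82 subunits tested, 33 rose and 1 fell in MYC-OE, where 18.0% of all genes rose and 17.3% fell, and 39 rose and none fell in 1xSRSF7, where 9.03% and 8.26% of all genes did. In 1xSRSF2 29 rose and 1 fell (11.6% and 11.9% of all genes), in 1xSRSF3 15 rose and 2 fell (15.0% and 14.1%), and in 3XSR 8 rose and 12 fell (15.3% and 13.7%). The medians were 0.14 in MYC-OE, 0.28 in 1xSRSF7, 0.21 in 1xSRSF2, 0.12 in 1xSRSF3 and -0.01 in 3XSR on the log2 scale. Of 77 mitochondrial ribosomal protein genes, 25 rose and 7 fell in MYC-OE, 25 rose and 1 fell in 1xSRSF7, 35 rose and none fell in 1xSRSF2, 44 rose and 1 fell in 1xSRSF3, and 11 rose and 11 fell in 3XSR, against the same shares of all genes. Leaving out 1xCtrl replicate 2 and 1xSRSF3 replicate 1, 37 subunits rose and 6 fell in 1xSRSF2, 18 and 3 in 1xSRSF3, and 51 and 1 in 1xSRSF7, and of the ribosomal protein genes 40 and 2, 46 and 2, and 41 and 2. With all libraries, the rRNAs that these proteins bind, MT-RNR1 and MT-RNR2, passed the test in none of the 5 comparisons with a control. This did not hold under every alternative. For example, MT-RNR2 passed as lower in 1xSRSF3 without 1xCtrl replicate 2 (-0.27, edgeR adjusted p = 0.0370). MT-RNR1 passed as higher in 3XSR without 3XCTL replicate 2 (0.17, edgeR adjusted p = 0.0218).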

How the data were processed

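Gene counts of 21 polyA-selected, stranded, 150 bp paired-end libraries, 3 in each of 7 groups, were used as the authors deposited them, as raw counts in 2 tables of 60668 gene identifiers (9 and 12 libraries), which were tested separately. Per the submitters' processing notes, Trimmomatic 0.39, STAR, StringTie 2.1.3b and the build GRCh38.p13 were used; which step made the counts, how reads mapping to several places were treated and the strand setting are not given in the sources used here. Samples were grouped by title. Of the identifiers 58561 were found in GENCODE release 29, among them all 37 mitochondrial genes with the same version, and coordinates and sequences are from that release.

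Library totals were 143269192 to 303323552 counts, so a 95% Wilson interval of a mitochondrial share reached at most 0.00531 percentage points to either side, for counting error only. Genes were filtered with filterByExpr (minimum count 10, minimum total 15), leaving 23160 and 24362, scaled by TMM and tested with the robust quasi-likelihood F test of edgeR 4.0.16 in R 4.3.3, with all groups of a table in the fit. Benjamini-Hochberg adjustment ran over all genes tested, with a threshold of 0.05. The SE of a log2 fold change was its size divided by the square root of F. Levels are counts per 1000000 of the TMM-scaled library size. Shares and ratios were compared by two-sided exact permutation tests. The scripts were tested on simulated data.

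Values in every library are given for the rRNAs, MT-ND6 and, per comparison, the 3 mRNAs with the largest fold change, besides tRNAs the results turn on. Of the genes for expression of mitochondrial DNA, the 2 highest and 2 lowest called per line and POLRMT, TFAM, MTPAP and LRPPRC are named. The members, lists and tests were chosen with earlier results of these data known. Same-numbered replicates deviated with correlations of -0.190 to 0.0543, so the numbers did not pair the samples. Alternatives were other scalings and filters, DESeq2 1.42.0, limma-voom (limma 3.58.1), fits on the 2 groups compared, a replicate block, other definitions of the share and ratio, and each library left out.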

Additional observations from a re-analysis of the deposited data

How the results depend on the processing

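In the comparisons with a control, no called gene reversed its direction. With 1 library left out the log2 ratio of 3XSR to its control, near 0, ran from -0.04 to 0.07 for the share and from -0.03 to 0.06 for the ratio of mRNA to rRNA, so it has no fixed sign. The shares and ratios moved by less than 1 SD under all alternatives but 2, both for the share in MYC-OE, which was -0.35 on the log2 scale for the 13 protein genes alone and -0.35 without the rRNA genes, against -0.26. Leaving out 1 library at a time gave from 4 to 9 calls for 3XSR against its control and 19 to 26 for MYC-OE, where 7 and 24 were called with all libraries. For the single lines the ranges also take in the fit without both 1xCtrl replicate 2 and 1xSRSF3 replicate 1. They were 6 to 17 for 1xSRSF2, 2 to 6 for 1xSRSF3 and 1 to 26 for 1xSRSF7, where 18, 2 and 8 were called with all libraries. The direct comparisons, over the same kinds of fits, gave 18 to 21 for MYC-OE against 3XSR and 9 to 18 for 1xSRSF2 against 1xSRSF3. They gave 25 to 34 for 1xSRSF2 against 1xSRSF7 and 13 to 22 for 1xSRSF3 against 1xSRSF7. DESeq2 gave 16 calls for 1xSRSF7 and 15 for 1xSRSF2 against 1xSRSF3, and fits on the 2 groups compared gave 3, 16 and, for 1xSRSF3, 1; the cause was not tested, beyond the fewer libraries of the latter. Adding the counts of 4 nuclear copies, and leaving out both 1xCtrl replicate 2 and 1xSRSF3 replicate 1, were chosen after seeing the data. The latter gave 26 calls for 1xSRSF7, but 1xCtrl replicate 2 was set apart partly by its low mitochondrial share. Of the 16 scarce tRNAs each library held 11 to 1813 counts. An arm left with 2 libraries borrows its spread from the other groups.

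Replicate numbers did not pair the samples, and a fit with a replicate block gave 3 calls for 1xSRSF7, 1 for 1xSRSF3, 12 for 1xSRSF2, 7 for 3XSR and 24 for MYC-OE.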
